A study of Mus musculus with 20 samples.

Results

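The 3 metallothionein genes Mt1, Mt2 and Mt3 and 7 antioxidant enzyme genes, Nqo1, Gclc, Gclm, Gpx1, Gpx4, Prdx6 and Sod2, were followed in sorted astrocytes and microglia after brain injury. The genes were picked by symbol, and all 10 were found among the 39017 gene identifiers of the count table. The 20 libraries came from male C57BL/6 mice (C57BL/6J in the study's methods) 3 to 4 months old, with 5 libraries for each of 4 groups: microglia and astrocytes of sham animals, and microglia and astrocytes of animals with lateral fluid percussion injury (FPI). All animals had a craniectomy and were attached to the percussion device, and only the FPI animals received the fluid pulse, so the sham groups carry the surgery as well. Cells were sorted from the forebrain on the injured side 7 days later, microglia as CD11b+ cells with intermediate CD45 and astrocytes by the surface antigen ACSA-2. Each library held the RNA of 1 cell type from 1 animal, without pooling.

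Metallothioneins are small cysteine-rich proteins that bind zinc and copper, and Mt1 and Mt2 are induced by metals through the transcription factor MTF1 as well as by glucocorticoids and cytokines. Mt3 is the brain-enriched form and responds little to the same inducers. The NRF2 pathway is the other arm: oxidants release NRF2 (encoded by Nfe2l2) from KEAP1, and NRF2 drives enzymes such as the quinone reductase Nqo1 and the glutamate-cysteine ligase subunits Gclc and Gclm, which make the precursor of glutathione. In the brain, astrocytes are known for holding much of this defence, and glutathione peroxidases, peroxiredoxins and the mitochondrial superoxide dismutase remove peroxides and superoxide.

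Depth ran from 5623349 to 13110857 counts per library. Microglia markers (10 genes, among them Tmem119, P2ry12 and Cx3cr1) summed, in counts per 1000000 library counts (CPM), to between 18640 and 29170 in microglia libraries and to 105 to 262 CPM in astrocyte libraries. Astrocyte markers (10 genes, among them Aqp4, Aldh1l1 and Gfap) summed to 10230 to 31430 CPM in astrocyte libraries and to 246 to 602 CPM in microglia libraries, so the defining markers went with the cell type labels in all 20 libraries. No marker of the opposite cell type was at 0 in a whole group. The astrocyte libraries also held markers of other cells. Oligodendrocyte markers summed to 1347 to 16230 CPM in them, and pericyte and smooth muscle markers to 261 to 7701 CPM. In sham astrocyte library 4 the oligodendrocyte sum of 16230 CPM was above the astrocyte sum of 10230 CPM. Levels in astrocyte libraries are thus not those of astrocytes alone. FPI astrocyte library 5 is named with the suffix of 6 microglia libraries and with the animal of library 2 of the same group, and the other 4 microglia libraries (4 and 5 of sham and of FPI) are named with the suffix of astrocytes. The markers of these 5 libraries went with their labels. Both cell types came from the same animal for 3 animals (2 sham and 1 FPI). In these bulk libraries, fewer cells of a type and less RNA per cell cannot be told apart.

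The metallothionein genes lie side by side on chromosome 8 (GRCm38, plus strand), in the order Mt3, Mt2 and Mt1, within 27.7 kb. Mt3 (ENSMUSG00000031760) spans chr8:94152607-94154146, Mt2 (ENSMUSG00000031762) chr8:94172664-94173568 and Mt1 (ENSMUSG00000031765) chr8:94179082-94180327, with gaps of 18.5 and 5.5 kb. The upstream sequences of Mt1 and Mt2 are shown because the levels of both moved together across astrocyte libraries, as described with the astrocyte values. They run 5′ to 3′ from 250 to 21 bases before the start of the RefSeq annotation of GRCm38.p6, on the plus strand, at chr8:94178839-94179068 for Mt1 and chr8:94172368-94172597 for Mt2. Capitals mark matches to the core of the metal response element bound by MTF1 (TGCACNC or TGCGCNC) and of the antioxidant response element bound by NRF2 (TGACNNNGC), each searched on both strands.
Mt1: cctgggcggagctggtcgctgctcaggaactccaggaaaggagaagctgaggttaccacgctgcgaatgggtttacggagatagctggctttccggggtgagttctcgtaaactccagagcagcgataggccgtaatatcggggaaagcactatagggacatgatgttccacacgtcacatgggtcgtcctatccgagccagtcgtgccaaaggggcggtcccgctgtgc
Mt2: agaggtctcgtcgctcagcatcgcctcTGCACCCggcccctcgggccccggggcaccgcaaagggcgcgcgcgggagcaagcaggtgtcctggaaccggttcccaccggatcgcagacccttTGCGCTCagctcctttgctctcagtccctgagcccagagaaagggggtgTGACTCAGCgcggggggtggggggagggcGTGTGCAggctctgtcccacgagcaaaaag
The Mt2 window held 3 matches to the metal response core, starting at bases -223, -128 and -50, and 1 to the antioxidant core at base -79, none of which overlapped. Among 32851 windows of the same 230 bases, 1.06% held 3 or more metal response cores and 9.19% held an antioxidant core. The Mt1 window held neither, which says only that these letters are absent from these bases. Bases downstream of the annotated start were not searched. That start may lie 5′ of the start that most Mt1 transcripts use, so the Mt1 and Mt2 windows cannot be compared as promoters. A window was found for 8 of the 10 genes. Of the other 6 genes with a window, only Gclm had a match, with 2 metal response cores and 1 antioxidant core, while 19.5% of all windows held a metal response core.

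To learn which of the genes each cell type used most, levels were compared per kilobase of annotated exon. In sham astrocytes the metallothioneins led (mean ± SD, n = 5 libraries here and for all groups). Mt1 had a level of 200.8 ± 97.9 CPM per kb, Mt3 of 136.8 ± 67.2 and Mt2 of 115 ± 67.1. Prdx6, a peroxiredoxin that also repairs oxidised phospholipids, followed with a level of 86.8 ± 33.7 CPM per kb and Gpx4, which reduces lipid peroxides, with 43.8 ± 4.61. The ranges over libraries of neighbours in this order overlapped from Mt1 down to Gpx4, and Gpx4 stood clear of Gpx1 at 13.4 ± 3.68 CPM per kb. In sham microglia the order was different: Gpx1, the cytosolic glutathione peroxidase, was highest at 60.96 ± 3.69 CPM per kb, clear of Gpx4 at 18.9 ± 4.25, Mt1 at 14 ± 1.76 and Gclc at 13.7 ± 0.821, whose ranges overlapped. The other 6 genes had levels of at most 2.25 CPM per kb in sham microglia. The exon length of Mt1 (1246 bases) equals its whole span in the annotation, intron included, so its level per kb is understated more than that of Mt2 (588 of 905 bases). Gpx1 likewise has an exon length equal to its span (1441 bases). The order in astrocytes depends on these lengths. In CPM alone Prdx6 was highest in sham astrocytes, at 417 ± 162 CPM against 250 ± 122 CPM for Mt1. The exon length of Prdx6 (4804 bases) joins 9 annotated transcripts.

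**Figure D1:**
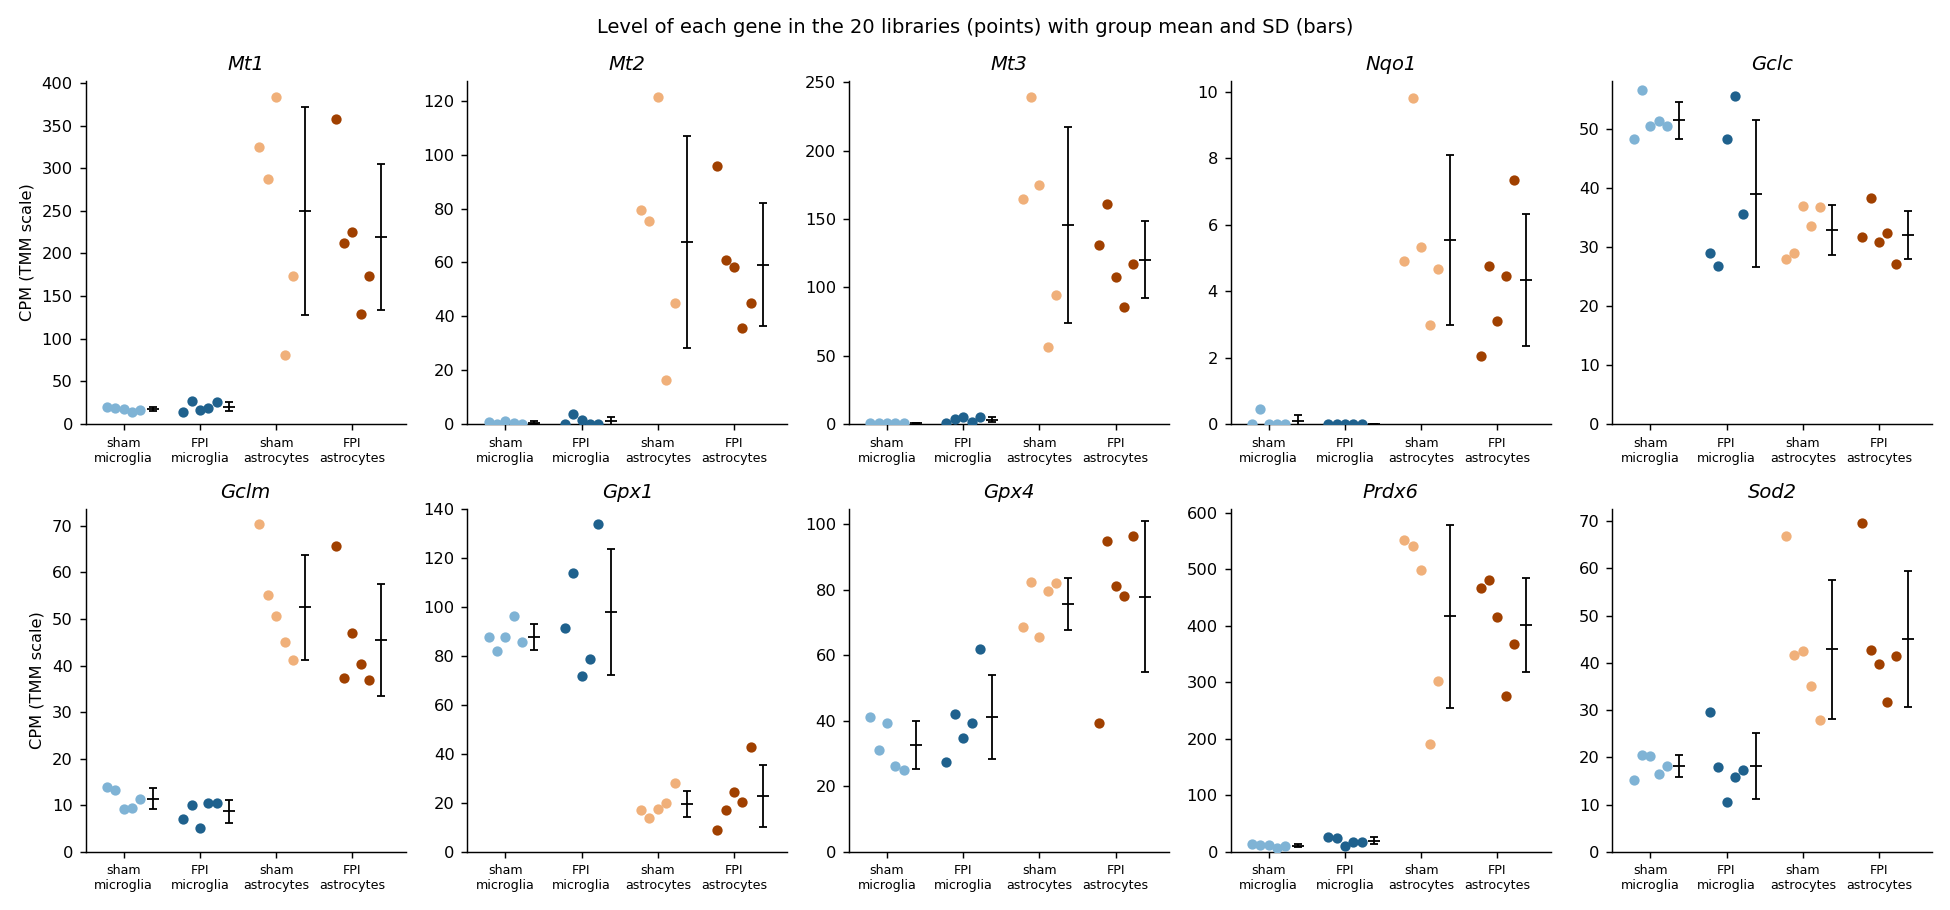
Level of each gene in CPM (vertical axis, linear, from 0 in every panel) in the 5 libraries of each of the 4 groups. Points are libraries in order 1 to 5, and the bars are the group mean ± SD. Mt2, Mt3 and Nqo1 sit near 0 in microglia, Mt1 and Prdx6 lie far below their astrocyte levels there, and Gpx1 is higher in microglia.

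The difference between the cell types was tested first in sham animals. All 10 genes passed the test (edgeR quasi-likelihood, Benjamini-Hochberg adjusted p below 0.1 and absolute log2 fold change above 0.6, referred to here as called), 8 of them lower in microglia and 2 higher. Mt2, Mt3 and Nqo1 passed the filter on low counts only through the astrocyte libraries, where they are high, and so had to differ. The count must be read against a background in which 62% of the 13659 tested genes were called, 33.9% lower and 28.1% higher in microglia. The 5 libraries of 1 cell type lay apart from the 5 of the other for 10 of 10 genes, and for 53.6% of all tested genes.

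Mt3 and Mt2 showed the widest gaps, and the gap of Mt1 was smaller than those of Nqo1 and Prdx6. Mt1 was measured at 325, 288, 384, 80.7 and 174 CPM in sham astrocyte libraries 1 to 5 and at 19.8, 19.2, 17.1, 14.3 and 16.8 CPM in sham microglia libraries. The lowest astrocyte library was thus above every microglia library, and the fitted level was 13.8-fold lower in microglia (log2 fold change -3.79, SE 0.37, adjusted p = 1.817e-06). Mt2, the second inducible form, was at 79.6, 75.5, 121, 16.4 and 44.9 CPM in sham astrocytes and at 0.874, 0.146, 1.12, 0.340 and 0 CPM in sham microglia. The microglia values rest on 22 counts over the 5 libraries, and the fitted difference was -6.99 (SE 0.68). Mt3 was at 165, 239, 175, 56.7 and 94.1 CPM in sham astrocytes and at 0.999, 0.731, 0.448, 0.453 and 0.568 CPM in sham microglia. Its 29 counts in sham microglia gave the largest difference of the 10 genes, -7.73 (SE 0.47). Mt2 and Mt3 passed the filter only through the astrocyte libraries, so no p-value is given for them here. The sizes of their gaps rest on these low microglia counts.

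Of the NRF2 target enzymes, both ligase subunits were present in both cell types in opposite order. The catalytic subunit Gclc (chr9:77754535-77794485) was at 48.3, 56.6, 50.5, 51.3 and 50.5 CPM in sham microglia and at 28.0, 29.0, 36.9, 33.6 and 36.8 CPM in sham astrocytes. Every microglia library was above every astrocyte library, by 0.70 on the log2 scale (SE 0.13, adjusted p = 4.348e-04). Relative to the median of all tested genes, which moved from -0.045 with TMM factors to -0.15 with RLE factors or in DESeq2, the difference of Gclc was 0.75 under each of TMM and DESeq2. Its log2 fold change before that correction was just under the fold minimum with DESeq2 (0.596), with RLE factors (0.595) and without sham astrocyte library 1 (0.578). With at least 10 counts in every library it was lower still (0.507), so its call rests on these choices. The modifier subunit Gclm was lower in microglia, at 11.4 ± 2.18 CPM against 52.5 ± 11.4 CPM in astrocytes (log2 fold change -2.14, SE 0.20). Nqo1, which reduces quinones, was low in astrocytes and near 0 in microglia: it had 2.97 to 9.82 CPM in sham astrocytes (29 to 113 counts), 0 counts in 4 of 5 sham microglia libraries and 6 counts in the other. A count of 0 allows a level of up to 0.568 CPM (3 counts) in sham microglia library 5, the least deeply sequenced. The fitted difference of -5.33 (SE 0.83) depends on the prior count.

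Among the enzymes that remove peroxides and superoxide, 3 were lower in microglia and Gpx1 was higher. Gpx1 (chr9:108338903-108340343) was at 87.9, 81.8, 87.5, 96.3 and 85.7 CPM in sham microglia and at 17.2, 13.7, 17.5, 20.1 and 27.9 CPM in sham astrocytes, a log2 difference of 2.25 (SE 0.18, adjusted p = 3.848e-07). Prdx6 (chr1:161240112-161251219) was at 13.2, 12.4, 12.2, 6.91 and 9.46 CPM in sham microglia and at 552, 542, 499, 190 and 302 CPM in sham astrocytes, a log2 difference of -5.21 (SE 0.34, adjusted p = 6.167e-08). Gpx1 was therefore the one peroxidase of this set that sham microglia held above astrocytes, while Prdx6 was 36.9-fold lower in them. Gpx4 (-1.15, SE 0.17) and the mitochondrial dismutase Sod2 (-1.18, SE 0.23) differed less, with 32.5 ± 7.33 and 18.2 ± 2.31 CPM in sham microglia.

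**Figure D2:**
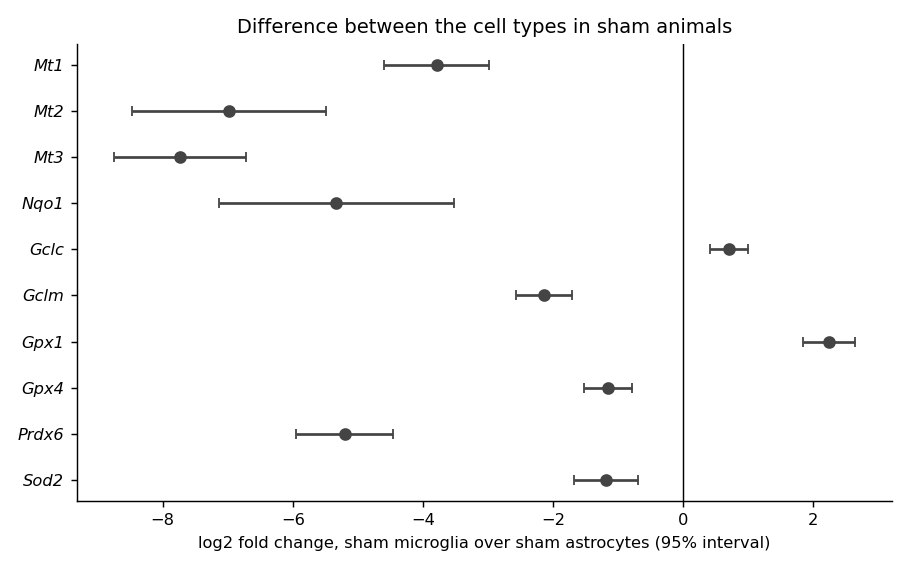
Log2 fold change of sham microglia over sham astrocytes for each gene (horizontal axis), with its 95% interval from the edgeR fit over 5 libraries per cell type. Gclc and Gpx1 lie to the right of 0, and the other 8 genes lie to the left, from -1.15 for Gpx4 to -7.73 for Mt3.

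Because astrocyte transcripts were present at a low level in microglia libraries, the microglia values were set beside the astrocyte markers. In sham microglia the 9 astrocyte markers other than Gfap summed to 1.40 ± 0.227% of their mean sum in sham astrocytes. Mt3 was at 0.439 ± 0.159% and Mt2 at 0.734 ± 0.712% of the astrocyte mean, both with means below that of the markers. Prdx6 was at 2.60 ± 0.625% and Mt1 at 6.97 ± 0.875%. All 5 Mt1 values, from 5.71 to 7.93%, were above the highest marker value of 1.62%, and all 5 Prdx6 values, from 1.66 to 3.17%, were above it as well. Single markers ranged more widely, with means from 0.431% for Fgfr3 to 4.08% for Slc1a3, and every Mt1 value was also above the highest Slc1a3 value of 4.60%, although Gfap reached 6.13% in 1 library. Nqo1 is listed at 0 in 9 of 10 microglia libraries, sham and FPI. How much of the microglia values came from astrocyte RNA was not tested.

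**Figure D3:**
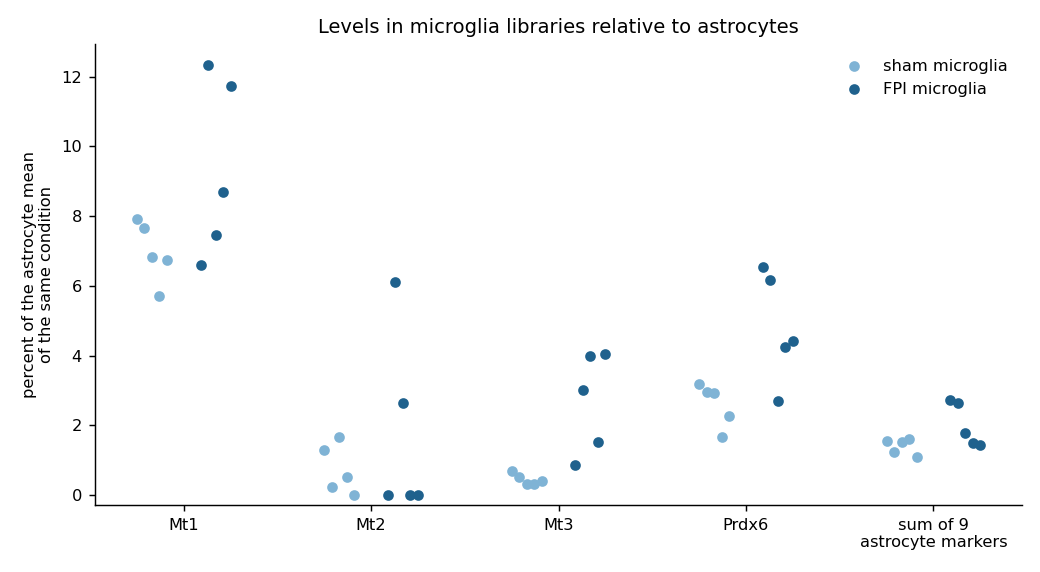
Level in each microglia library as a percent of the mean of the 5 astrocyte libraries of the same condition (vertical axis), for 4 genes and for the summed CPM of 9 astrocyte markers. Each point is 1 library. Mt1 lies between 5.71 and 12.3%, above all marker sums, and Mt3 is at 0.685% or less in sham and at 0.872% or more in FPI libraries.

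The effect of FPI was next examined in microglia. No metallothionein or antioxidant gene passed the test in microglia: of the 10 genes 7 could be tested, 0 were called by edgeR and 2, Prdx6 and Gclc, had an unadjusted p below 0.05. Over all 12143 tested genes 2.35% were called and 11.3% had an unadjusted p below 0.05. DESeq2 called 1 of the 7, and 3.31% of all tested genes. Mt2, Mt3 and Nqo1 were below the filter on low counts.

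Prdx6 showed the largest difference of the 7. It was at 26.2, 24.8, 10.8, 17.1 and 17.8 CPM in FPI microglia libraries 1 to 5, against 6.91 to 13.2 CPM in sham. FPI library 3 lay within the sham range and the other 4 were above it. The log2 fold change was 0.85 (SE 0.27, 95% interval 0.28 to 1.42, adjusted p = 0.140 in edgeR), and the same difference was called by DESeq2 (adjusted p = 0.0730), with a term for the 2 series of library names (0.0989) and without FPI library 3 (1.01, adjusted p = 0.0319). The other 9 fits with 1 library left out did not call it, and over 10 other alternatives its adjusted p ran from 0.0730 to 0.510. FPI libraries 1 and 2, the highest for Prdx6, also had the highest sums of the 9 astrocyte markers, 515 and 503 CPM against 236 to 348 CPM in sham microglia. With a term for that sum, chosen after these values were seen, the difference was 0.64 (adjusted p = 0.51). As a percent of the astrocyte mean, Prdx6 was at 4.82 ± 1.56% in FPI microglia and the markers were at 2.02 ± 0.617%.

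Gclc had a lower mean after FPI. It was at 28.9, 26.8, 48.4, 55.5 and 35.6 CPM in FPI microglia, and libraries 1, 2 and 5 were below all sham libraries while libraries 3 and 4 were within the sham range. The log2 fold change was -0.39 (SE 0.18, adjusted p = 0.431), and the spread between FPI libraries (SD 12.5 CPM) was wider than that between sham libraries (SD 3.09 CPM). Gclm had 5.17 to 10.49 CPM in FPI against 9.17 to 13.98 CPM in sham microglia, a log2 difference of -0.39 (SE 0.29, adjusted p = 0.733), so the groups overlapped.

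Mt1 was at 14.5, 27.04, 16.4, 19.1 and 25.7 CPM in FPI microglia. Libraries 2 and 5 were above the sham range of 14.3 to 19.8 CPM and the other 3 were within it, with a log2 difference of 0.25 (SE 0.22, adjusted p = 0.778). Gpx1 (0.18), Gpx4 (0.35) and Sod2 (0.03, with a sign that turned under some settings) had groups that overlapped, and adjusted p-values of 0.627 to 0.985. The 95% intervals of the 7 genes ran from -0.99 to 1.42 on the log2 scale.

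Mt3 was the gene whose FPI microglia libraries did not overlap the sham libraries. It had 1.05, 3.61, 4.81, 1.85 and 4.86 CPM in FPI microglia against 0.448 to 0.999 CPM in sham, from 9, 29, 40, 12 and 38 counts against 8, 10, 4, 4 and 3. All 5 FPI libraries were above all sham libraries, FPI library 1 by a narrow margin. This was 1 of 10 genes, where 2.23% of all genes with at least 1 count and 3.43% of the tested genes did not overlap. Without the filter on low counts (genes of at least 1 count), the log2 fold change was 2.31 (SE 0.86, adjusted p = 0.213), and in a fit of all 20 libraries it was 2.31 (SE 0.49, adjusted p = 0.0349). In the fit of all libraries Mt3 passed the filter through the astrocytes, where it is high, and its spread was estimated with theirs, so that this p rests on the astrocyte libraries as well. In FPI microglia libraries 1 to 5 the astrocyte markers other than Gfap summed to 515, 503, 339, 286 and 275 CPM. The relation of Mt3 to these sums was not tested in microglia. Mt3 was at 2.69 ± 1.44% of the astrocyte mean in FPI microglia, against 0.439 ± 0.159% in sham. Gfap, an astrocyte marker of the same libraries, was called higher in FPI microglia (2.78, SE 0.55, adjusted p = 0.00772). Its mean was also higher in FPI astrocytes (848 ± 283 CPM against 218 ± 108 CPM in sham), so the Gfap difference alone does not measure astrocyte RNA. As a percent of the astrocyte mean, Gfap was at 2.88 ± 2.35% in sham and 4.96 ± 4.16% in FPI microglia. The part of astrocyte RNA in the Mt3 values was not tested.

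Mt2 had 29 and 13 counts in FPI microglia libraries 2 and 3 and none in the other 3, against 7, 2, 10, 3 and 0 in sham. The groups overlapped, and the difference with all genes kept was 1.00 (SE 1.31, adjusted p = 0.820). Nqo1 had 0 counts in all 5 FPI microglia libraries, which allows a level of up to 0.0762 CPM over the group.

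In astrocytes, FPI left none of the 10 genes called. All 10 were tested, 0 were called by edgeR or DESeq2 and 0 had an unadjusted p below 0.05. Across the 13741 tested genes 0.00728% were called (1 gene, against 23 with DESeq2), 2.32% had an unadjusted p below 0.05, and 0.713% did not overlap between the groups, where 0 of the 10 genes stood apart. Log2 fold changes ran from -0.33 (Nqo1) to 0.26 (Gpx1), each with an adjusted p of 0.9994.

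The wide spread between astrocyte libraries set the precision. Mt1 was at 357, 213, 225, 129 and 173 CPM in FPI astrocytes, inside the sham range of 80.7 to 384 CPM, with a log2 fold change of -0.16 (95% interval -0.99 to 0.68). Mt2 was at 95.8, 61, 58.2, 35.7 and 45.0 CPM in FPI astrocytes, also inside the sham range, with a log2 fold change of -0.16 (95% interval -1.09 to 0.77). The coefficient of variation of Mt1 was 48.7% over sham and 39.1% over FPI astrocytes, against 12.6% over sham and 27.3% over FPI microglia. Mt3 was at 131, 161, 108, 85.4 and 117 CPM in FPI astrocytes, within the sham range of 56.7 to 239 CPM (log2 fold change -0.24, 95% interval -0.96 to 0.47). These intervals are wider than that of Gclc below.

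Prdx6 had 276 to 481 CPM in FPI against 190 to 552 CPM in sham astrocytes (-0.02, 95% interval -0.65 to 0.61). Gclc had 27.1 to 38.3 CPM in FPI against 28.0 to 36.9 CPM in sham (-0.01, 95% interval -0.34 to 0.32). Gpx1 reached 42.9 CPM in FPI astrocyte library 5, and without that library its log2 fold change of 0.26 turned to -0.12. Gpx4 was lowest in FPI library 1, at 39.3 CPM against 65.4 to 82.2 CPM in sham. For Mt1, Mt2, Gclc, Gpx4, Prdx6 and Sod2 the sign also turned when 1 library was left out.

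**Figure D4:**
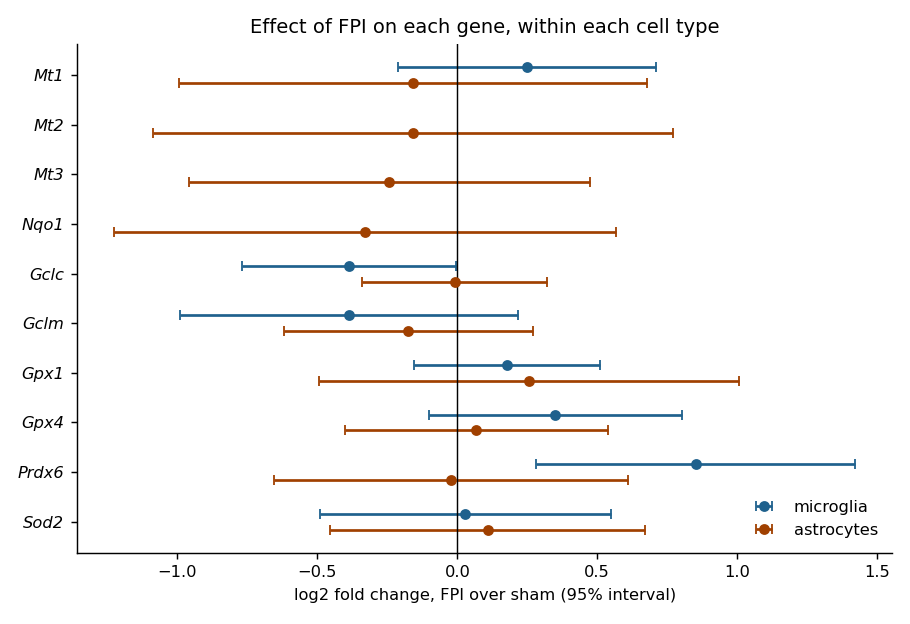
Log2 fold change of FPI over sham (horizontal axis) with its 95% interval, from the edgeR fit in microglia (7 genes tested) and in astrocytes (10 genes tested), 5 libraries per group. The intervals of Prdx6 and, narrowly, Gclc in microglia lie to one side of 0 before adjustment, and all astrocyte intervals span 0.

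Whether the effect of FPI differed between the cell types was tested with an interaction term over all 20 libraries. None of the 10 genes was called at an adjusted p below 0.1 in edgeR, where 0.199% of 15077 tested genes were, and 2 (Mt3 and Prdx6) had an unadjusted p below 0.05, where 7.02% of all genes did. Mt2, Mt3 and Nqo1 entered this fit only through the astrocyte libraries, being below the filter in microglia. Mt3, with 29 counts in sham and 128 in FPI microglia, had the smallest p of the 10, with an effect of FPI higher in microglia than in astrocytes by 2.58 on the log2 scale (SE 0.59, 95% interval 1.36 to 3.81, adjusted p = 0.112). The adjusted p for Mt3 was 0.00583 in DESeq2 (which called 1.27% of all genes), 0.0779 with every gene of at least 1 count, 0.0879 with a replicate block and 0.0145 without the astrocyte libraries of animals that gave both cell types. It was not called with RLE factors (0.119), without TMM factors (0.136) or without astrocyte libraries 5 of both groups (0.165). With 1 library left out it was called in 3 of 20 fits, those without FPI microglia library 1 (adjusted p = 0.0642), sham astrocyte library 4 (0.0301) or sham astrocyte library 5 (0.0990), and not in the other 17, where it reached 0.246. For Prdx6 the difference between the cell types was 0.89 (SE 0.39, adjusted p = 0.656). For Mt1, with 0.42 (95% interval -0.52 to 1.36), and the other 7 genes the interval spanned 0.

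Within astrocytes the metallothioneins varied together from library to library. Over the 10 astrocyte libraries, log2 CPM of Mt1 and Mt2 had a Pearson r of 0.988 and a Spearman rho of 0.988 (permutation test, p = 1e-05, the smallest that the resamples allow, and 2e-05, adjusted p = 6e-05 and 1.2e-04 over 6 relations). Without the 2 libraries farthest from the median of Mt1, r was 0.991. Mt1 and Mt3 had r = 0.850 and rho = 0.794 (permutation test, p = 0.00214 and 0.00874, adjusted p = 0.00642 and 0.0262), which fell to r = 0.685 (permutation p = 0.0608) without the 2 farthest libraries and so rests on them. Mt2 made up 20.4 ± 2.56% of the summed counts of Mt1 and Mt2 in sham astrocytes and 21.3 ± 0.759% in FPI astrocytes. The ratio of both genes was thus steady while their level changed several-fold between libraries. Gclc and Gclm, whose products form 1 enzyme, had r = -0.334 and rho = -0.176 in astrocytes (permutation test, p = 0.344 and 0.635, adjusted p = 0.516 and 0.762), and r = -0.499 without the 2 farthest libraries. In microglia the relations of Mt1 with Mt2 (r = 0.209, rho = 0.050), Mt1 with Mt3 (r = 0.607, rho = 0.539) and Gclc with Gclm (r = 0.250, rho = 0.394) had permutation p-values of 0.0658 to 0.895, adjusted 0.132 to 0.895, and r of 0.039, 0.077 and 0.154 without the 2 farthest libraries.

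The same libraries that were low in metallothioneins were low in astrocyte markers. Sham astrocyte library 4, with the lowest Mt1, Mt2, Mt3 and Prdx6 of all 10 libraries, had the lowest sum of the 9 astrocyte markers, 10020 CPM against 11260 to 31260 CPM in the others, and the highest sum of oligodendrocyte markers, 16230 CPM against 1347 to 10190 CPM. Over the 10 libraries the marker sum had r = 0.951 and rho = 0.891 with Mt1, r = 0.916 and rho = 0.915 with Prdx6, and r = 0.901 and rho = 0.903 with Mt2 (permutation test, Pearson p of 3e-05, 1e-04 and 8e-05, adjusted over 10 relations 3e-04, 3.333e-04 and 3.333e-04). Without the 2 libraries farthest from the median of the markers these r were 0.915, 0.840 and 0.831. Gclm (r = 0.782, rho = 0.770, adjusted permutation p = 0.0133) and Sod2 (r = 0.776, rho = 0.770, adjusted permutation p = 0.0133) were also positively related to the markers, with r of 0.922 and 0.774 without the 2 farthest libraries. Mt3 had r = 0.829 and rho = 0.782 (adjusted permutation p = 0.0078), and r = 0.622 (permutation p = 0.101) without the 2 farthest libraries, so that its relation rests on them.

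Gpx1 and Gpx4 went the other way in r, and Gclc and Nqo1 showed little relation. Gpx1 had r = -0.610 and rho = -0.758 with the markers (permutation p = 0.0586 and 0.0156, adjusted p = 0.0837 and 0.0223), and r = -0.884 without the 2 farthest libraries. FPI astrocyte library 5, the highest for Gpx1 at 42.9 CPM, had the highest sums of several other marker lists among the astrocyte libraries. These were oligodendrocyte precursor (1251 CPM), pericyte and smooth muscle (7701 CPM), ependyma and choroid plexus (256 CPM) and red blood cell markers (36.0 CPM). Whether any of these cells gave its Gpx1 value was not tested. The microglia markers summed to 214 CPM in FPI library 5 and to 262 CPM in FPI library 1, where Gpx1 was lowest at 9.06 CPM. Monocyte and border macrophage markers went the other way, with 17.4 CPM in FPI library 5 and 11.9 CPM in FPI library 1. The part of such cells in the Gpx1 values was not tested either. Gpx4 had r = -0.553 and rho = -0.455 (permutation p = 0.0842 and 0.190, adjusted p = 0.105 and 0.238), Gclc r = -0.147 and rho = -0.115, and Nqo1 r = 0.053 and rho = 0.248 (permutation p of 0.490 to 0.882, adjusted 0.545 to 0.882). Without the 2 farthest libraries these r were -0.737, -0.145 and -0.269. With a term for the marker sum the FPI log2 fold change in astrocytes was 0.11 for Mt1, 0.17 for Mt2 and 0.02 for Mt3, each opposite in sign to the value without it. The relation to the markers was looked at after the levels had been seen, and the part of cell composition in the spread was not tested.

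**Figure D5:**
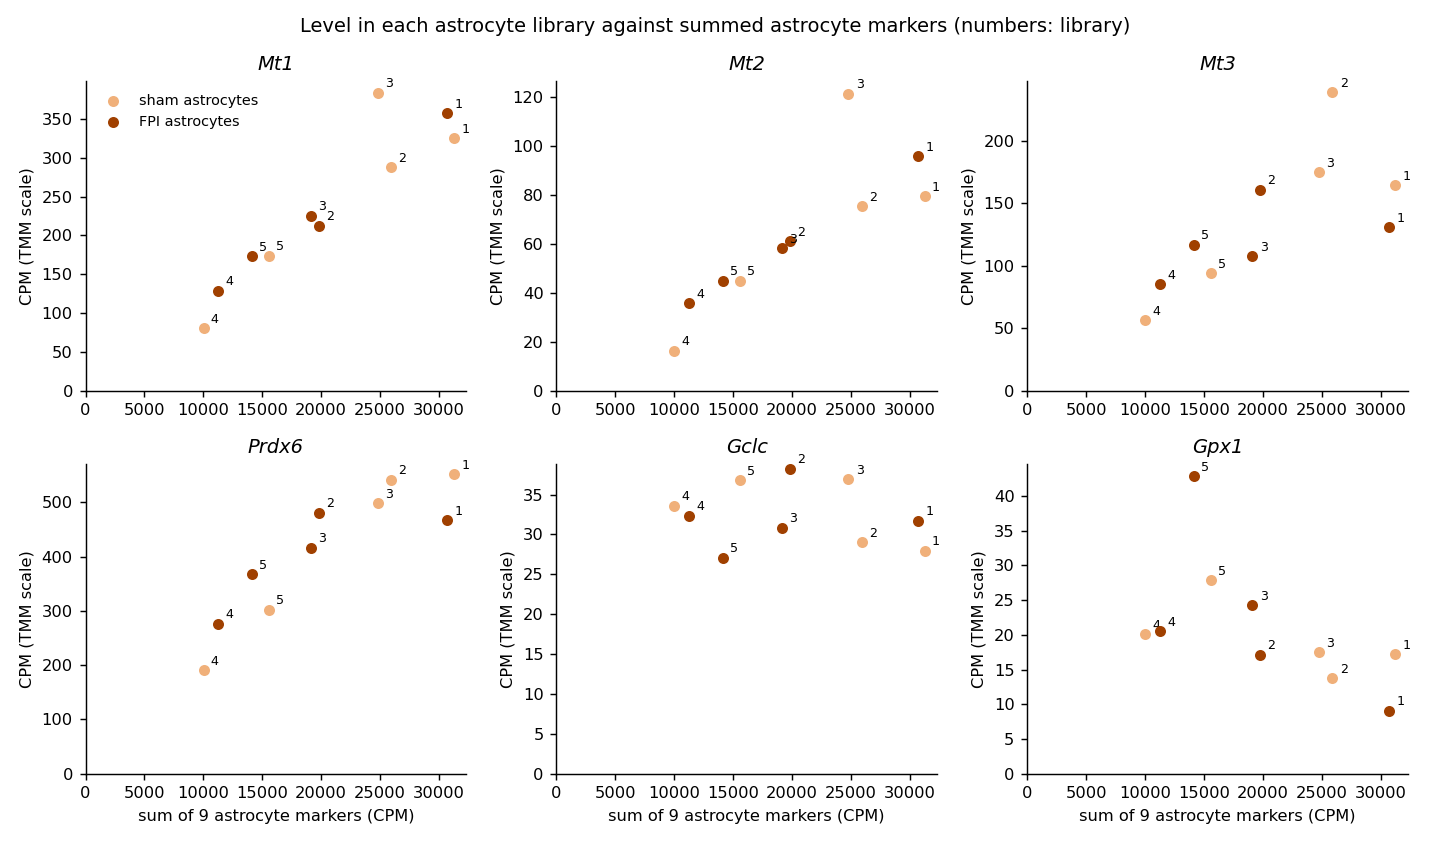
Level of 6 genes in CPM (vertical axes, from 0) against the summed CPM of 9 astrocyte markers (horizontal axes) in the 10 astrocyte libraries, numbered by library. Mt1, Mt2, Mt3 and Prdx6 rise with the markers from sham library 4 upwards, Gclc stays between 27.1 and 38.3 CPM, and Gpx1 is highest in FPI library 5.

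By likeness of log2 CPM over the 10 astrocyte libraries, the 3 genes nearest to Mt1 among 9181 genes of mean CPM of 10 or more were Mt2 (r = 0.988), Cpne2 (0.987) and Dchs1 (0.985). Those nearest to Mt2 were St8sia5 (0.992), Mt1 (0.988) and Cpne2 (0.985). Over the 10 microglia libraries the nearest to Mt1 among 7985 genes were Nono (0.948), Fam96a (0.946) and Ywhae (0.945), and Mt2 was too low to rank. These r are descriptions over 10 libraries, which differ in cell composition and depth, and within a library all genes share both.

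Finally, the neighbours of these genes in the pathways were counted from lists. In response to FPI, 0 genes of the 7 lists were called by edgeR in microglia (82 tested), in astrocytes (90 tested) or in the interaction (90 tested), where 2.35%, 0.00728% and 0.199% of all tested genes were. At an unadjusted p below 0.05 there were 7, 3 and 7, where 11.3%, 2.32% and 7.02% of all genes were. DESeq2 called 2 in microglia (Maff and Hmox1), 0 in astrocytes and 1 in the interaction (Gsta4), and 3.31%, 0.167% and 1.27% of all genes. Gsta4 was below the filter in microglia, at 0.407 ± 0.512 CPM in sham and 1.48 ± 0.685 CPM in FPI. It entered the interaction through the astrocyte libraries, at 33.4 ± 11.2 and 27.0 ± 6.84 CPM, so its call rests on values near 0 in microglia. The 4 genes that follow were chosen after their values were seen. Txnip, which binds and inhibits thioredoxin, was lower in FPI microglia by 0.56 on the log2 scale (SE 0.12, adjusted p = 0.0203) and missed only the fold minimum. Hmox1, the haem-degrading NRF2 target, differed by 0.90 on the log2 scale in FPI microglia (SE 0.31, adjusted p = 0.198 in edgeR) and in DESeq2 an adjusted p of 0.0940. Maff, a small Maf partner of NRF2, differed by 1.78 (SE 0.58, adjusted p = 0.152 in edgeR and 0.0377 in DESeq2). Srxn1, which repairs peroxiredoxins, had 1.13 (SE 0.45, adjusted p = 0.297). Slc39a7 (1.51, SE 0.58), Prdx1 (0.54, SE 0.21) and Slc39a12 (-0.76, SE 0.31) also had an unadjusted p below 0.05 in FPI microglia in edgeR. Their adjusted p-values were 0.265, 0.273 and 0.312. The 13 tested genes of the list of other NRF2 targets, with Hmox1 and Srxn1 among them, had a median log2 fold change of 0.006 in microglia.

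Between the cell types in sham animals, 28.1% of all tested genes were called higher and 33.9% lower in microglia, and the counts of each list stand against these shares. Of 9 NRF2 regulators tested 5 were higher and 1 lower in microglia, with a median log2 fold change of 1.11 against -0.045 over all genes. Bach1, a repressor of the same DNA element, was higher by 2.55 (SE 0.21), Nfe2l2 by 1.41 (SE 0.19) and its partner Mafg by 1.13 (SE 0.13), while the KEAP1-binding adaptor Sqstm1 was lower, by a log2 value of -0.73 (SE 0.15). Nfe2l2 had 148.6 ± 12.5 CPM in sham microglia and 58.2 ± 16.6 CPM in sham astrocytes. Of 15 other NRF2 targets 5 were higher and 7 lower in microglia, led by Me1 (-7.01), Gstm1 (-5.99), the cystine transporter Slc7a11 (-5.54) and Pgd (1.55).

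Of 14 genes of the glutathione cycle 2 were higher and 7 lower in microglia, with Mgst1 (-6.18), Gpx8, Gpx7 (-5.38) and Glrx2 (-1.59) passing with the smallest p. Gpx8 had 4.77 to 23.8 CPM in sham astrocytes and 0 counts in all 5 sham microglia libraries, so no fold change is given for it. Of 17 peroxiredoxins, thioredoxins, dismutases and related genes 3 were higher and 9 lower, among them Txnip (4.05), the extracellular dismutase Sod3 (-7.08), Sesn3 (-4.26) and Prdx1 (-1.64). Of 14 tested genes of the list for the metallothionein locus and zinc transport 2 were higher and 3 lower. Slc30a10 (-6.19), the zinc exporter Slc30a1 (-1.47) and the importer Slc39a12 (-4.43) were lower, and the importer Slc39a8 (2.02) was higher in microglia. The fourth gene of the locus, Mt4, had 0 counts in every library. Among 9 glucocorticoid-responsive genes 2 were higher and 4 lower, with Fkbp5 (4.95), Pdk4 (-6.98), Zbtb16 (-5.44) and Ddit4 (-3.03) at the smallest p. Of 12 immediate-early and heat shock genes 11 were higher and 1 was lower in microglia, led by Jun (3.75), Junb (5.00), Atf3 (6.22) and Fosb (4.01). Me1, Mgst1, Gpx7, Pdk4 and Zbtb16 each had under 1 CPM in every sham microglia library and 0 in at least 1, so their fitted values depend on the prior count. These genes, and Gsta4, Gpx8 and Slc30a10, were below the filter in microglia and passed it here only through the astrocyte libraries. They therefore had to differ, and the counts of their lists and the total over the 7 lists include them. Over the 7 lists 62 of 90 tested genes were called in this contrast, where 62% of all tested genes were.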

How the data were processed

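The deposited table holds counts of reads per gene, whole numbers that the authors did not normalize, for stranded total RNA libraries from picogram amounts. Reads were aligned to GRCm38 with HISAT2 2.1.0, and the submitters' processing notes list featureCounts. Identifiers were matched to GENCODE M21 (GRCm38). Genes passing the edgeR 4.0.16 filter on low counts were tested over the whole table with TMM factors and the quasi-likelihood test (R 4.3.3). Adjustment was by Benjamini-Hochberg over all tested genes, and called means past both an adjusted p of 0.1 and a log2 fold change of 0.6 in size (the interaction has no fold minimum). CPM levels are on 1 TMM scale over all 20 libraries. Correlations used permutation tests, two-sided, with 100000 resamples. The genes, lists and tests were chosen with earlier results of these data known. Named genes are the 10, at most 4 called genes of smallest p per list, and the 3 most alike to Mt1 and Mt2. The test was checked on simulated data. Alternatives were DESeq2 1.42.0, other scalings and filters, added terms and left-out libraries. The 3 animals that gave both cell types were treated as independent libraries. So were the FPI astrocyte libraries named with the same animal, and by name that group held fewer animals than libraries. The main fits, SDs, intervals and correlations count both of these libraries. Gclm overlaps Gm6061 on the same strand, so its reads there are uncertain, and limits from counts cover counting error only.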

Additional observations from a re-analysis of the deposited data

Results flagged for a closer look

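Among 39 groups of 5 libraries, 1 held a library far from the others. Nqo1 was at 0.439 CPM (6 counts) in sham microglia library 2, the most deeply sequenced library, and at 0 in the other 4 sham microglia libraries. By chance about 1 in 20 groups would be picked out in this way. Without that library the interaction value of Nqo1 (FPI in microglia minus FPI in astrocytes) went from -2.79 to 0.33 on the log2 scale, so its sign rests on these 6 counts.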

How the results depend on the processing

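Each comparison was refitted under the alternatives, 1 at a time. Members called by FPI in microglia went from 0 to 1 with DESeq2, in a fit of all 20 libraries and with a term for the name series, and genes called went from 285 to 121 in the fit of all 20 libraries. Genes called by FPI in astrocytes (1) became 23 with DESeq2, 9 with every gene of at least 1 count, 11 with the replicate block, 53 in the fit of all 20 libraries, 3 with a term for astrocyte markers, and 0 with at least 10 counts in every library, with FPI libraries 2 and 5 summed or at an adjusted p below 0.05, and none of these were among the 10 genes. In the contrast of the cell types a minimum of 10 counts in every library left 4974 of 8475 calls and 6 of 10 genes. In the interaction, the 30 genes called became 191 with DESeq2, 1 with at least 10 counts in every library and 69 without the astrocyte libraries of animals with both cell types, and 1 of the 10 genes, Mt3, was called with DESeq2, every gene of at least 1 count, the replicate block and without those astrocyte libraries. The cause of these shifts was not tested.

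The replicate numbers were not taken to pair the libraries, since the labels give them no meaning and not every same-numbered pair of sham and FPI libraries deviated together: r was -0.066 to 0.0924 in microglia and -0.00927 to 0.452 in astrocytes, where it was over 0.1 in 4 of 5 pairs and 3 of 5 libraries matched their own number best. With the replicate block, genes called went from 285 to 255 in microglia, from 1 to 11 in astrocytes (unadjusted p below 0.05 from 319 to 581), from 8475 to 8378 between the cell types and from 30 to 25 in the interaction, where Mt3 had 2.50 (adjusted p = 0.0879, edgeR).

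Signs that turned were all of differences below the threshold. In microglia the log2 fold change of Sod2 (0.03) was -0.041 without TMM factors, -0.047 with the replicate block and -0.15 with the marker term. In astrocytes the marker term gave 0.11 for Mt1, 0.17 for Mt2, 0.02 for Mt3, -0.002 for Gpx4 and 0.19 for Prdx6, the replicate block 0.021 for Mt2 and 0.056 for Prdx6, and summing FPI libraries 2 and 5 gave -0.039 for Gpx4. In the interaction Gpx1 became 0.089 without astrocyte libraries 5 of both groups and Sod2 0.11 without the astrocyte libraries of shared animals. Nqo1 had r = -0.269 with the markers without the 2 farthest libraries, and Mt1 with Mt3 r = 0.685.

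With 1 library left out, genes called ranged from 177 (without sham or FPI microglia library 2) to 423 for FPI in microglia, 0 to 3 in astrocytes, 8471 to 8821 between the cell types and 21 to 48 in the interaction. Of the 10 genes 0 to 1, 0, 9 to 10 and 0 to 1 were called. Without FPI microglia library 1 the gene called in microglia and in the interaction was Mt3. Log2 fold changes ranged from -0.23 to 0.18 for Sod2 in microglia, and in astrocytes from -0.43 to 0.021 for Mt1, -0.43 to 0.13 for Mt2, -0.086 to 0.037 for Gclc, -0.12 to 0.44 for Gpx1, -0.042 to 0.22 for Gpx4, -0.21 to 0.086 for Prdx6 and -0.14 to 0.29 for Sod2. In the interaction they ranged from -0.082 to 1.76 for Mt2, -3.08 to 0.33 for Nqo1, -0.28 to 0.27 for Gpx1 and -0.33 to 0.14 for Sod2. Without FPI astrocyte library 5 the r of Mt1 with Mt2 was 0.988.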
